A study of Mus musculus with 7 samples.

Results

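The genes described here are those of oxidative phosphorylation, the chain of 4 respiratory complexes and the ATP synthase (complex V) of the inner mitochondrial membrane. They were chosen by symbol (Nduf subunits, Sdha to Sdhd, Uqcr, Cox4 to Cox8 and Atp5 genes), with a completed comparison and a mean of at least 1 FPKM over the libraries. FPKM is fragments scaled to transcript length and to the mapped total of the library, so a level per length. The choice gave 83 of 15934 genes in the table, and 0 genes with a matching symbol fell below the minimum, the weakest member being Cox4i2 at a mean of 3.53 FPKM. Of the 83, 82 were placed in complexes I to V. The other, Cox4nb, matches by its name only: it lies beside Cox4i1 on chromosome 8 and encodes a subunit of a membrane protein complex of the endoplasmic reticulum.

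The tissue was the sinoatrial node, the natural pacemaker in the wall of the right atrium, dissected from Sv129 mice 3 weeks after birth, and its poly-A RNA was sequenced. The control sample came from mice with floxed Baf250a alleles and no Cre (Baf250af/f), and the Cre sample from mice that also carried Hcn4CreERT2, taken 6 days after tamoxifen. Hcn4CreERT2 is a tamoxifen-activated recombinase driven from the pacemaker channel gene Hcn4, so deletion is limited to cells that express it, while the RNA came from all cells of the dissected tissue. Baf250a (symbol Arid1a) is a DNA-binding component of the BAF remodeller, which moves nucleosomes. By its title the study concerns repression by Baf250a of a contractile programme directed by Nkx2.5 in the node. With a single library for each genotype, differences below cannot be set against replicates, and the genotypes were not tested. The number of mice per library, and tamoxifen treatment of the controls, are not given in the labels.

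Complexes I and II pass electrons from NADH and succinate to ubiquinone, complex III passes them on to cytochrome c, and complex IV, cytochrome c oxidase, passes them to oxygen. Complexes I, III and IV pump protons, and the ATP synthase uses the resulting gradient. Heart muscle is among the tissues richest in mitochondria, and several complex IV subunits have a muscle isoform that replaces the general one in heart and skeletal muscle. The subunits encoded in mitochondrial DNA were not analysed here.

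Summed over genes, FPKM came to 497344 in the control sample and 485137 in the Cre sample, from an unknown number of reads. Arid1a had 34.9 FPKM in the control sample and 12.3 FPKM in the Cre sample, a log2 ratio of -1.43. Its FPKM also counts exons outside the floxed part. It comes from all cells of the tissue, in libraries that also differed in T cell and cell cycle genes, as given below. It is therefore a limited check of the deletion, whose part in this difference was not tested. The node markers Hcn4, Isl1 and Shox2 were weak, with 0.605 and 0.719 FPKM, 1.69 and 2.02 FPKM and 1.20 and 1.26 FPKM in the control and Cre sample. A further node marker, Tbx3, was also weak but differed more, at 0.996 FPKM without and 2.59 FPKM with Cre, a log2 ratio of 0.85. The libraries differed in more than genotype. All 16 T cell and thymus markers were lower in the Cre sample, their summed level being 3173 FPKM without and 7.83 FPKM with Cre, and all 14 cell cycle genes were lower (747 and 37.6 FPKM). All 11 measured lung and airway markers were higher, with sums of 4144 and 17893 FPKM over the list. Xist had 0.379 and 93.2 FPKM and the Y-linked gene Eif2s3y 85.8 and 0.118 FPKM, so sex and genotype cannot be told apart. No marker of these lists was listed at 0. The part of these tissue and sex differences in the values below was not tested, and in a bulk library fewer cells of a type and less RNA per cell cannot be told apart.

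Most oxidative phosphorylation genes were slightly higher in the Cre sample. Ratios are log2((Cre FPKM + 1)/(control FPKM + 1)), in which the pseudocount of 1 hardly touches genes this abundant. The median over the 83 members was 0.13 (quartiles 0.053 and 0.29), beside -0.071 over all 13408 genes whose mean reached 1 FPKM. Over the 739 genes, members included, that reached 100 FPKM, as most members do, the median was 0.05, with 400 above equal expression, 98 at least 1.5-fold higher and 113 lower. 71 members lay above equal expression, against 46.0% of all genes. At a size of at least 1.5-fold, 3 members were higher (Atp5b and Cox6a2 among them) and 1 was lower (Cox7a2), where 16.6% of all genes were higher and 22.0% lower. At 2-fold, 0 were higher and 0 lower, against 6.08% and 10.4% of all genes. The members thus spread less widely than genes in general, and 38 of them differed by less than 1.1-fold. In the authors' deposited table, which called 0.671% of all genes significant, 0 members were called.

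The direction of this small difference depends on what the libraries are set against. With ratios centred on the median of the fibroblast and endothelial lists, whose own medians were 0.46 and 0.47, the members' median became -0.33 and 10 of 83 lay above equal expression. Centred on 21 heart muscle genes, whose median was 0.90, it became -0.77 with 0 above. Set to the same upper quartile it was 0.37, and the median of all genes moved to 0.14. Differences between members hardly depend on such a scaling. The ratios of single genes do, so higher, lower and above equal expression below hold for the libraries as scaled by the authors.

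As a share of all transcripts by length-scaled level, the members made up 8.05% of summed FPKM in the control sample and 9.33% in the Cre sample. Their rank order of levels was nearly kept, with a Spearman correlation of 0.957 between the libraries across the 83 genes, which share both libraries and are not independent. In both libraries 77 members were above 50 FPKM, and 6 were under 20 FPKM. The weak ones were Cox4i2, Ndufa4l2, Cox6b2, Atp5s, Atp5sl and Cox4nb, of which the last 3 are not structural subunits and the others are tissue or stress isoforms. Atp5b was the most abundant member in each library.

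**Figure D1:**
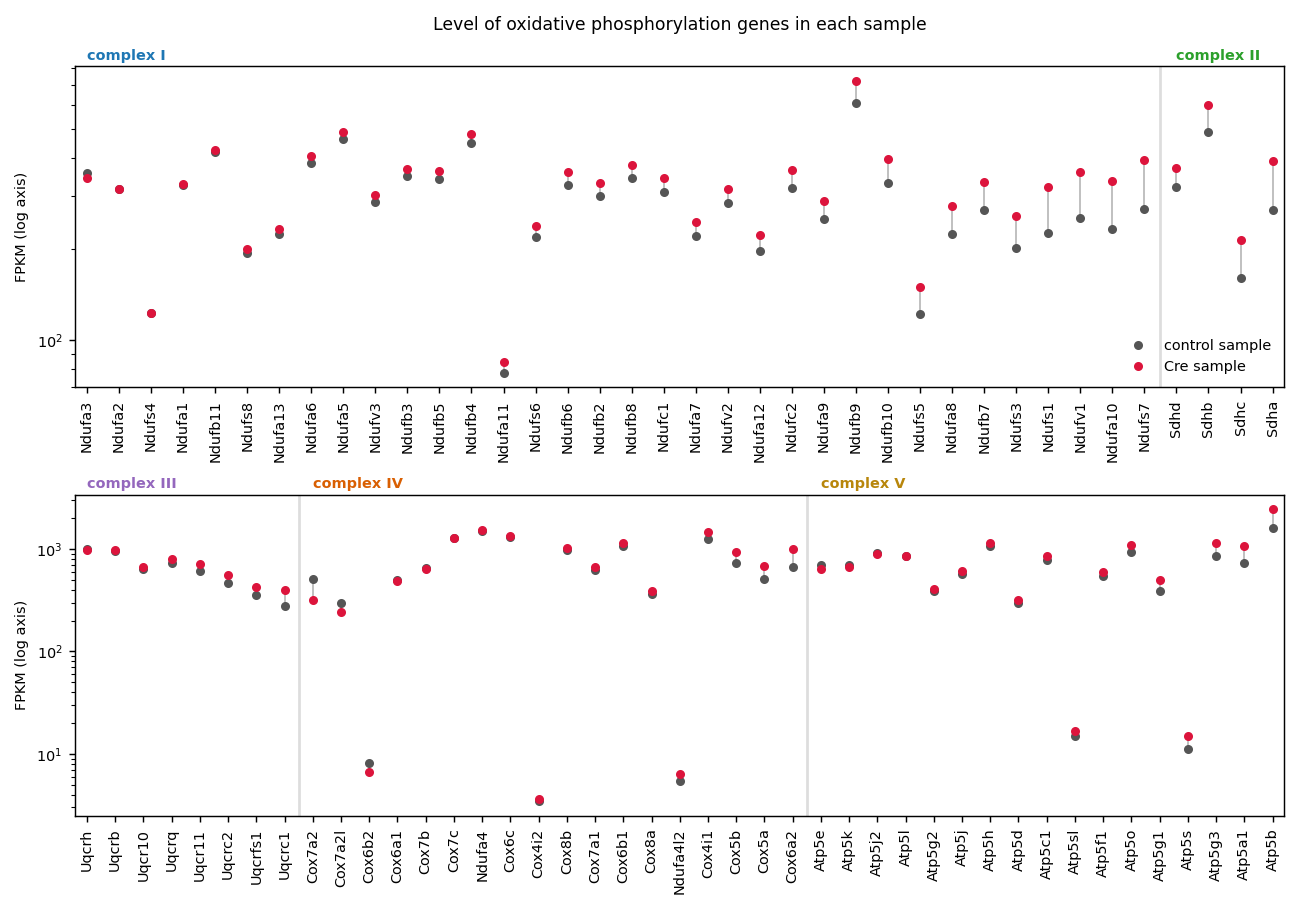
FPKM on a log axis of 81 genes placed in complexes I to V, in the control sample (grey) and the Cre sample (red), 1 point per library, ordered within each complex by log2 ratio. Most pairs of points nearly coincide, the Cre point of Cox7a2 lies clearly below its control point, and the Cre points of Atp5b and Cox6a2 lie clearly above theirs.

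Complex I oxidises NADH and is the largest of the complexes. Its 35 members had levels from 77.8 to 609.8 FPKM in the control sample (median 284) and from 84.6 to 724 FPKM in the Cre sample (median 335). The median log2 ratio was 0.15, and 34 of 35 were above equal expression. Of all genes 46.0% were, and of those with a mean of at least 100 FPKM 400 of 739. These shares stand beside such counts for the other complexes and lists too. The 7 nuclear-encoded core subunits had higher ratios, with a median of 0.50, than the 28 accessory subunits, with a median of 0.13. Most of these core subunits carry the flavin or iron-sulfur clusters or bind ubiquinone. The difference between core and accessory subunits is a description of genes within 1 pair of libraries and was not tested.

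Ndufs7, an iron-sulfur protein next to the ubiquinone-binding site, had 272 FPKM in the control sample and 396 FPKM in the Cre sample, a log2 ratio of 0.54. Ndufv1, which binds the flavin and NADH, had 253 and 362 FPKM, and Ndufs1, the large iron-sulfur subunit beside it, had 227 and 320.3 FPKM, with log2 ratios of 0.51 and 0.50. Ndufs3, a core subunit of the arm that reaches into the matrix, had 201 and 258 FPKM (0.36). Ndufv2 and Ndufs8, both iron-sulfur proteins of the core, differed less, at 284 and 316 FPKM and 194 and 201 FPKM, log2 ratios of 0.15 and 0.047. These core subunits were all higher in the Cre sample, by ratios that differed widely among them.

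Among accessory subunits, Ndufa10 stood highest, at 234 and 336 FPKM (0.52), followed by Ndufb7 at 271 and 335 FPKM (0.31) and Ndufa8 at 225 and 278 FPKM (0.30). Ndufs5 and Ndufb10 had 121 and 149.6 FPKM and 332 and 398 FPKM, log2 ratios of 0.30 and 0.26. Ndufb9, the most abundant complex I transcript, had 609.8 FPKM in the control sample and 724 FPKM in the Cre sample (0.25). The least abundant was Ndufa11, a membrane-arm subunit, at 77.8 and 84.6 FPKM (0.12). At the low end, Ndufa3 was the only complex I member below equal expression, at 358 and 345 FPKM (-0.055). Ndufa2 had 316 and 317 FPKM (0.0048), and Ndufs4, a subunit needed to complete the NADH-oxidising module, had 122 and 123 FPKM (0.0095). Their levels in the 2 samples were nearly the same.

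The X chromosome carries 3 members, the complex I subunits Ndufa1 and Ndufb11 and the complex IV subunit Cox7b. Ndufa1 had 327 and 329.5 FPKM, Ndufb11 had 419.7 and 427 FPKM and Cox7b had 651 and 637 FPKM, with log2 ratios of 0.013, 0.025 and -0.031. All of them were close to equal expression in libraries that differ in Xist.

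Complex II, succinate dehydrogenase, belongs to both the respiratory chain and the citric acid cycle and has no subunit encoded in mitochondrial DNA. All 4 of its genes were higher in the Cre sample, with a median log2 ratio of 0.36, the highest of the 5 complexes. Sdha, the flavoprotein that oxidises succinate, had 269 FPKM in the control sample and 393 FPKM in the Cre sample (0.54). Its iron-sulfur partner Sdhb had 488 and 602 FPKM (0.30). The membrane anchors Sdhc and Sdhd had 160.1 and 215 FPKM and 321 and 372 FPKM, log2 ratios of 0.42 and 0.21. Levels were unequal within the complex, Sdhb lying above Sdhc by a wide margin in each library.

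In complex III, 7 of 8 members were above equal expression and the median log2 ratio was 0.17. Uqcrc1, a core protein that faces the matrix, had the highest ratio, with 280.2 FPKM in the control sample and 403 FPKM in the Cre sample (0.52). Uqcrfs1, the Rieske iron-sulfur protein that hands electrons on, had 354 and 429 FPKM (0.27), and the other core protein, Uqcrc2, had 469.6 and 561 FPKM (0.25). The 5 small subunits were nearer to equality, with a median of 0.087. Uqcrh, the hinge protein, had 992 and 985 FPKM (-0.011), Uqcrb had 954 and 988 FPKM (0.05) and Uqcr10 had 634 and 673 FPKM (0.087). Uqcrq and Uqcr11 had 725 and 794 FPKM and 615 and 715 FPKM, log2 ratios of 0.13 and 0.22. The small subunits were the more abundant ones in each library.

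Complex IV had the lowest median log2 ratio of the complexes, 0.067, and the widest spread, from -0.66 to 0.59, with 12 of 18 members above equal expression. Its nuclear-encoded subunits surround the catalytic core and include isoforms that differ between tissues. Ndufa4 was counted here, since its protein is a subunit of complex IV despite its name. Among subunits without a tissue isoform, Cox5a and Cox5b, which bind on the matrix side, had 515 and 692 FPKM and 729 and 945 FPKM, log2 ratios of 0.42 and 0.37. Cox6c and Cox7c were near equality at high levels, 1299 and 1353 FPKM (0.059) and 1284 and 1279.8 FPKM (-0.0048). The lower end of the complex was therefore set by isoforms.

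The muscle isoforms Cox6a2, Cox7a1 and Cox8b were all abundant, at levels that exceeded the general isoform of the same subunit in each library. Cox6a2 had 673 FPKM in the control sample and 1009.6 FPKM in the Cre sample, a log2 ratio of 0.59 that lies just at the 1.5-fold size and falls short of it with a pseudocount of 5 (mm9 chr7:135317459-135349880). The general isoform Cox6a1 had 503 and 489 FPKM (-0.039). Cox6a2 thus made up 57.2% of the COX6A transcripts, by length-scaled level, in the control sample and 67.4% in the Cre sample. The table gives Cox6a2 a locus merged with Itgad, a leukocyte integrin gene that had 0.210 and 0.0617 FPKM.

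For COX7A the muscle share was also larger in the Cre sample, but there the general isoform differed. The muscle isoform Cox7a1 had 631 and 663 FPKM (0.071), while the general isoform Cox7a2 had 509 FPKM in the control sample and 321 FPKM in the Cre sample, the lowest log2 ratio of all members at -0.66 (mm9 chr9:79603047-79607660). Cox7a1 made up 55.4% of the pair in the control sample and 67.4% in the Cre sample. The related Cox7a2l, which links complexes III and IV in supercomplexes, was also lower, at 295 and 241 FPKM (-0.29). The summed level of Cox7a1 and Cox7a2 was 1140.0 FPKM without and 984 FPKM with Cre, a log2 ratio of -0.21. For COX6A the sums were 1175 and 1499 FPKM (0.35). Whether either sum counts as higher or lower depends on the scaling, and these values hold for that of the authors.

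COX8 did not show such a difference in the muscle share. Cox8b, the muscle isoform, had 980.2 and 1029 FPKM (0.071) and Cox8a, the general isoform, 361 and 392 FPKM (0.12), so that Cox8b made up 73.1% of the pair in the control sample and 72.4% in the Cre sample. The difference in log2 ratio, muscle minus general isoform, was 0.62 for COX6A, 0.73 for COX7A and -0.05 for COX8. These differences were not tested. Beside them stand the T cell and thymus markers, which were lower, and the heart muscle genes, of which 21 of 21 were higher, with sums of 21633 and 32004 FPKM. Brown fat also expresses the muscle isoforms. Of 12 genes listed for it 10 were higher, against 46.0% of all genes, with sums of 5641 and 7088 FPKM. Most of these sums came from Fabp4, at 3544 and 4199 FPKM, and Fabp3, at 761 and 1170 FPKM. The list is not limited to genes particular to brown fat, Ppargc1a being also among the regulators below. The defining gene of brown fat, Ucp1, was present in both libraries at 691 and 739 FPKM (0.098). The 2 lower markers were Elovl3, at 13.0 and 4.90 FPKM (-1.25), and Dio2, at 10.4 and 4.46 FPKM (-1.07). The part of these cells in the isoform shares was not tested.

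**Figure D2:**
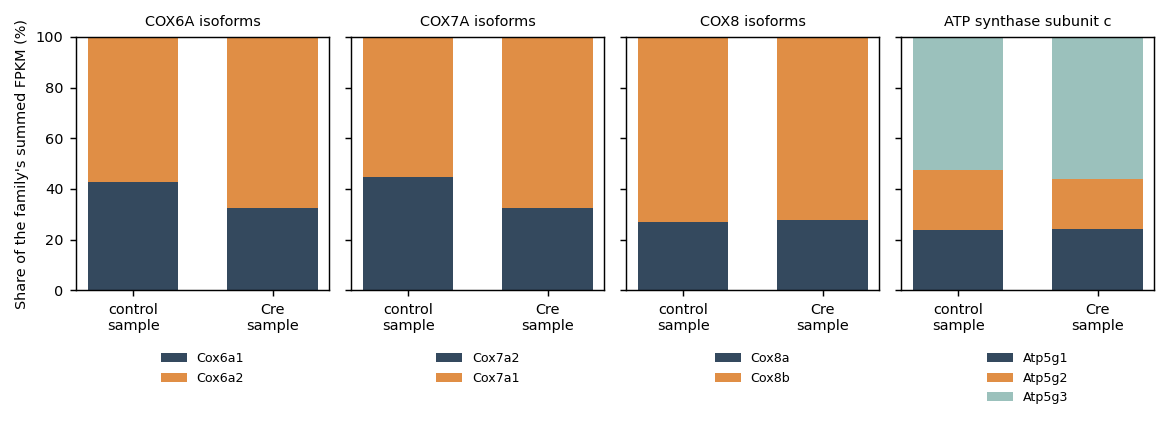
Share in percent of each isoform in the summed FPKM of its family, in the control and the Cre sample (1 library per bar), for COX6A, COX7A and COX8, with the general isoform below in blue and the muscle isoform above in orange, and for the 3 genes of ATP synthase subunit c. The muscle share is larger in the Cre sample for COX6A (57.2% and 67.4%) and COX7A (55.4% and 67.4%) and nearly the same for COX8 (73.1% and 72.4%).

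The other isoforms of complex IV were minor. Cox4i2, the isoform known from lung and induced by low oxygen, had 3.43 and 3.63 FPKM, under 1% of the COX4 transcripts in each library, although all measured lung and airway markers were higher in the Cre sample. The general Cox4i1 had 1259.8 and 1472 FPKM (0.22). Cox6b2, the testis isoform, had 8.13 and 6.58 FPKM (-0.27) beside 1072 and 1142 FPKM of the general Cox6b1 (0.092). Ndufa4l2, a paralogue of Ndufa4 induced by low oxygen and found in pericytes, had 5.47 and 6.31 FPKM beside 1501 and 1544 FPKM of Ndufa4, with log2 ratios of 0.18 and 0.04. Smooth muscle and pericyte markers had a median of 0.74, with 11 of 12 higher, against 46.0% of all genes.

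The promoters of these isoforms differ in their sequence. The windows below hold 250 bases before and 50 after the RefSeq start on GRCm38.p6, and are shown to set general isoforms beside muscle isoforms. A window for the muscle isoform Cox6a2 was not analysed here, so the muscle side rests on Cox7a1 and Cox8b. Capitals mark matches on either strand to the motifs searched: NRF1 (GCGCANGCG), ERR (TNAAGGTCA), ETS (CCGGAAGT), YY1 (AAGATGGCG), an E-box (CAGCTG) and a TATA box (TATAAA). In the Cox6a1 window they mark 2 NRF1 places, in Cox8a 2 ETS matches, and in Cox8b 2 E-box matches and, between them, a TATA box.
Cox6a1 (chr5:115348909-115349208, minus strand): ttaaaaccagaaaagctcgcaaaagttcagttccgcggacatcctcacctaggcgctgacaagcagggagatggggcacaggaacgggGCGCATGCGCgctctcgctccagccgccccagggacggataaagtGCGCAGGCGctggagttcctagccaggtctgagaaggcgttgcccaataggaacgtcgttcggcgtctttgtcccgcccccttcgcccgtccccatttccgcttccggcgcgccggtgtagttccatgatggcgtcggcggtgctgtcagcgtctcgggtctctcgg
Cox7a2 (chr9:79759804-79760103, minus strand): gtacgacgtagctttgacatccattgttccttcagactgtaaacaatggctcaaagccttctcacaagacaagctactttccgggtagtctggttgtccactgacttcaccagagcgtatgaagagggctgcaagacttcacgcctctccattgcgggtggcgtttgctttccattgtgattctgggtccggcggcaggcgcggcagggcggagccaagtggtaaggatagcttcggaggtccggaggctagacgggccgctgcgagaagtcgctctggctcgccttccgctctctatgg
Cox8a (chr19:7217567-7217866, minus strand): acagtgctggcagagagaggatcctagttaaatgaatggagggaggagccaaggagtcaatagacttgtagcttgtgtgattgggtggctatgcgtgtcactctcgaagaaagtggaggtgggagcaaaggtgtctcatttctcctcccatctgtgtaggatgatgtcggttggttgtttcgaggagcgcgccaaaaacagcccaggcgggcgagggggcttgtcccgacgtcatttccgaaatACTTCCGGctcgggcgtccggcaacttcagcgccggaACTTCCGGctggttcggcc
Cox7a1 (chr7:30183921-30184220, plus strand): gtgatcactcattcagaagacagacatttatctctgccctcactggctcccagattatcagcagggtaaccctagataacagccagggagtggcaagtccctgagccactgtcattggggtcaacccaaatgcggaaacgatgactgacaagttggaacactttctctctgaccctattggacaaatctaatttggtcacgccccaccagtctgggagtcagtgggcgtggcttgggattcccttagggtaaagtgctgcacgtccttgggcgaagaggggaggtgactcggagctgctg
Cox8b (chr7:140900397-140900696, minus strand): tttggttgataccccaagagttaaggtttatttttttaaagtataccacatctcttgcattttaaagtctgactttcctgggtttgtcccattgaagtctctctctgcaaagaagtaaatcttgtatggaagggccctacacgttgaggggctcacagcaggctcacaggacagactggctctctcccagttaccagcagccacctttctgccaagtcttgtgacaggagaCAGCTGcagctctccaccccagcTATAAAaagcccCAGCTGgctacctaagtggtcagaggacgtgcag
The general isoforms Cox6a1, Cox7a2 and Cox8a have 32, 20 and 19 CpG dinucleotides in these 300 bases, and the muscle isoforms Cox7a1 and Cox8b have 7 and 2. The median was 19 over the 74 windows found for 68 members and 7 over all 32851 windows of the RefSeq table. Cox8b had the fewest CpG of the 68, and Cox7b, which is no muscle isoform, came next with 5.

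The NRF1 motif was the most frequent of the factor motifs among the members. It was found in 21 of 74 windows (28.4%), against 6.25% of all windows. YY1 was found in 9 (12.2%, against 1.40%), ETS in 5 (6.76%, against 3.89%) and ERR in 3 (4.05%, against 1.28%). The E-box and TATA box were found in 6 and 7 windows (8.11% and 9.46%, against 16.3% and 13.6%). Members with an NRF1 match included Sdha, Sdhd, Uqcrc1, Cox6a1 and Atp5g3, and their log2 ratios, between -0.056 and 0.54, had a median of 0.13, beside 0.11 in the 48 members whose windows held none. The NRF1, YY1 and ETS motifs each contain CG, and member windows held a median of 19 CpG dinucleotides against 7 over all windows. The part of this CpG content in the motif shares was not tested. A match is a description of the letters and not of binding.

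The ATP synthase consists of the F1 head, which makes ATP, a membrane part with a rotating ring of c subunits, and a stalk that holds them together. Of 17 genes 14 were above equal expression, with a median log2 ratio of 0.12. The catalytic beta subunit Atp5b had 1619.8 FPKM in the control sample and 2459 FPKM in the Cre sample (0.60; mm9 chr10:127520362-127527444), and its partner in the head, the alpha subunit Atp5a1, had 739.5 and 1068 FPKM (0.53). The rotor subunits of F1 differed less or in the other direction. The gamma subunit Atp5c1 had 787 and 857 FPKM (0.12), the delta subunit Atp5d 298 and 320.5 FPKM (0.11) and the epsilon subunit Atp5e 693 and 635 FPKM, the lowest ratio of complex V at -0.13.

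Subunit c comes from 3 genes whose mature proteins are the same and which differ in the import sequence that is cut off. Atp5g3 was the most abundant, with 859.6 FPKM in the control sample and 1154 FPKM in the Cre sample (0.42). Atp5g1 had 386 and 499.8 FPKM (0.37) and Atp5g2 391 and 406 FPKM (0.055). The share of Atp5g2 in the 3 genes was 23.9% in the control sample and 19.7% in the Cre sample. In the control sample Atp5g1 and Atp5g2 were at nearly the same level, and in the Cre sample Atp5g1 was the higher.

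The 4 stalk subunits Atp5o, Atp5f1, Atp5h and Atp5j lay between 0.082 and 0.22. Atp5o, which ties the stalk to the head, had 938 and 1093 FPKM, and Atp5h, the most abundant of them, 1085 and 1149.6 FPKM. The small membrane subunits Atp5k, Atp5j2 and Atp5l, which shape dimers of the enzyme in the cristae, had 698 and 671 FPKM, 921 and 888 FPKM and 848 and 859 FPKM, with log2 ratios of -0.056, -0.052 and 0.018. These stood at or below equal expression while the catalytic head was higher. Atp5s and Atp5sl, named for complex V but no structural subunits, had 11.1 and 14.8 FPKM and 15.0 and 16.8 FPKM (0.38 and 0.15). Cox4nb had 9.13 and 8.20 FPKM (-0.14).

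The ratio varied with transcript length. Across the 83 members Spearman's rho between length and log2 ratio was 0.413, as a description of genes that share both libraries. The 27 members with the shortest transcripts (up to 596 bases) stood at 0.071 by their median, and the 27 longest (from 1001 bases) at 0.25. Within complex V rho was 0.598, within complex I 0.291 and within complex IV 0.0815. Over all genes whose mean reached 100 FPKM it was 0.209, and over all genes 0.026. The core subunits of complex I have longer transcripts, with a median of 1623 bases, than its accessory subunits, with 669.5 bases, so the 2 descriptions overlap. Complex II, with the highest median ratio, also has the longest transcripts by median (2065.5 bases). Complex IV, with the lowest, has the shortest (631.5 bases). In complex V the median is 1735 bases for F1 and 544 bases for the small membrane subunits. Ndufs7, a core subunit of 758 bases with a log2 ratio of 0.54, and Ndufs4, an accessory subunit of 1698 bases with 0.0095, lie outside the trend with length. Among the isoforms, Cox6a2, with the higher ratio, has a longer transcript than Cox6a1 (680 and 571 bases), while Cox7a1, also with the higher ratio, has a shorter one than Cox7a2 (393 and 659 bases).

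**Figure D3:**
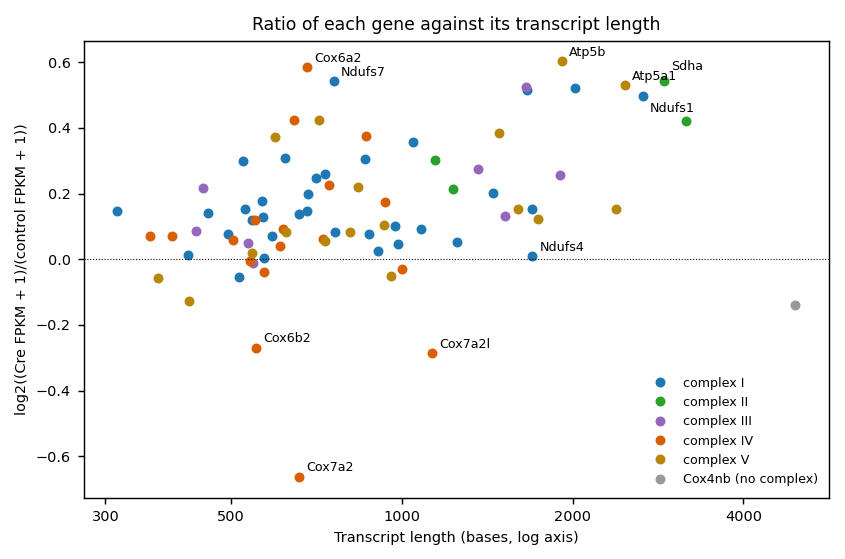
Log2 ratio, Cre over control, of 82 genes against its transcript length in bases on a log axis, coloured by complex, 1 point per gene. Points on the right lie higher on the whole, with Atp5b, Atp5a1, Sdha and Ndufs1 near the top, while Ndufs4 lies at equality and Cox7a2 far below the others of its length.

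Other parts of the same pathway gave a background of unequal ratios. Of 10 further components, 8 were higher, with a median log2 ratio of 0.31. None differed by 1.5-fold, where 16.6% of all genes were higher and 22.0% lower. Etfdh, which feeds electrons from fatty acid oxidation to ubiquinone, had 142 and 208 FPKM (0.54), and Cyc1, a cytochrome of complex III, 385 and 554 FPKM (0.53). Etfa and Etfb, the flavoprotein that passes electrons to Etfdh, had 382 and 528 FPKM and 462 and 611 FPKM (0.46 and 0.40). Atpif1, the inhibitor of the ATP synthase, and Usmg5, one of its small membrane subunits, were below equality, at 158 and 141 FPKM (-0.17) and 792 and 717 FPKM (-0.14).

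The citric acid cycle, which supplies NADH and succinate, stood above the chain. All 14 of its genes were higher (against 46.0% of all genes), with a median of 0.58. At a size of at least 1.5-fold 5 were higher (against 16.6% of all genes). Cs, citrate synthase, had 243 FPKM in the control sample and 476 FPKM in the Cre sample (0.97), and Idh2, a mitochondrial isocitrate dehydrogenase, 229.5 and 429 FPKM (0.90). Ogdh, of the 2-oxoglutarate dehydrogenase complex, had 83.1 and 149 FPKM (0.84). These transcripts are longer, with a median of 2474 bases against 732 over the members. Whether the lists differ was not tested.

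Assembly factors, which build the complexes and are not part of them, were weaker, between 2.48 and 243 FPKM in the control sample. Of 30 measured 19 were above equal expression (against 46.0% of all genes), with a median of 0.14. At a size of at least 1.5-fold 1 was higher (against 16.6% of all genes). This was Cox10, an enzyme of heme A synthesis for complex IV, at 7.16 and 13.3 FPKM (0.81). Next by size came Ecsit, of complex I assembly, at 23.5 and 33.5 FPKM (0.49), Uqcc, of complex III assembly, at 25.1 and 35.0 FPKM (0.46), and Lyrm7, which matures the Rieske protein, at 4.01 and 2.67 FPKM (-0.45). The factors pointed in both directions.

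**Figure D4:**
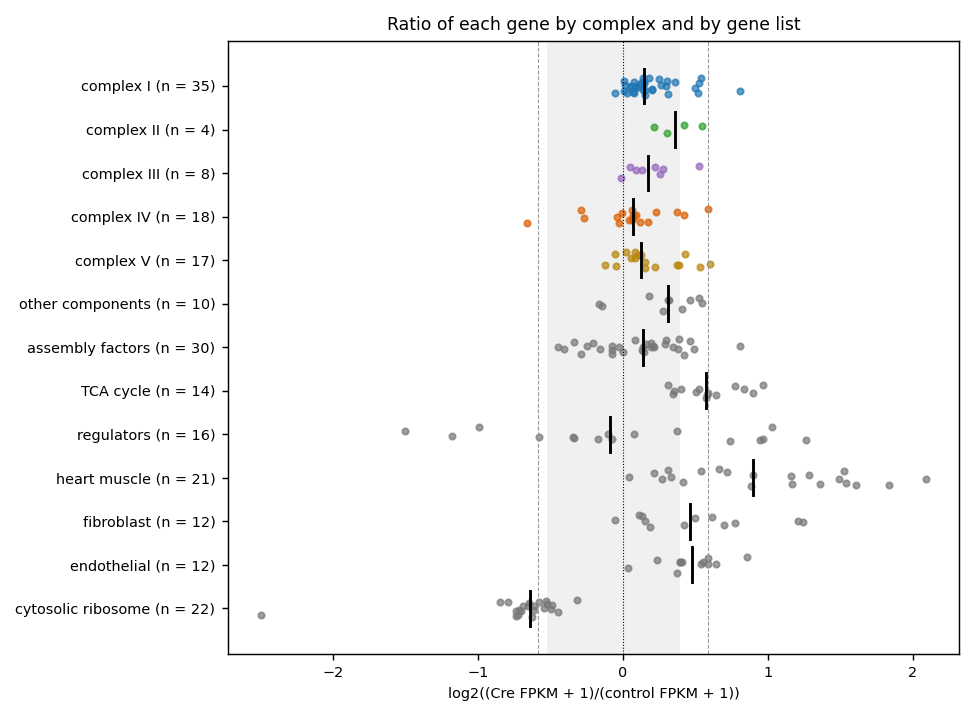
Log2 ratio, Cre over control, of each gene (points, spread vertically at random for sight) for the 5 complexes and 8 gene lists, with the median of each as a black bar. The grey band is the range between the quartiles of all genes and the dashed lines mark 1.5-fold. The complexes lie between 0 and 0.4 at their medians, the TCA cycle and heart muscle lists further right, and the cytosolic ribosome list at the left.

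Regulators of mitochondrial genes differed in both directions, as genes in general did. Of 16 genes 5 were at least 1.5-fold higher and 3 lower, where 16.6% of all genes were higher and 22.0% lower. The count of lower ones is near that share, and the median of -0.091 is near the -0.071 over all genes. Among the higher were the coactivators Ppargc1b, at 3.22 FPKM in the control sample and 9.14 FPKM in the Cre sample (1.26), and Ppargc1a, at 9.02 and 18.6 FPKM (0.97), the fatty acid receptor Ppara, at 6.47 and 14.2 FPKM (1.03), and the estrogen-related receptors Esrrg and Esrrb, at 2.01 and 4.80 FPKM (0.94) and 0.764 and 1.94 FPKM (0.74). Among the lower were Nrf1, whose motif was searched above, at 17.0 FPKM in the control sample and 5.33 FPKM in the Cre sample (-1.51), Gabpb1, a subunit of the ETS factor GABP, at 19.9 and 8.19 FPKM (-1.18), and Yy1 at 38.4 and 18.7 FPKM (-0.997). Esrra, the most abundant receptor of its family, had 29.3 and 38.2 FPKM (0.37). Tfam, which packs and transcribes mitochondrial DNA, had 20.4 and 15.8 FPKM (-0.35), and Gabpa 28.4 and 26.3 FPKM (-0.11); the table places Gabpa at a locus that overlaps the stalk subunit Atp5j. The libraries also differed in their T cell, cell cycle, heart muscle and brown fat markers, and the brown fat list itself holds Ppargc1a. The part of these differences in the levels of the regulators was not tested.

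**Figure D5:**
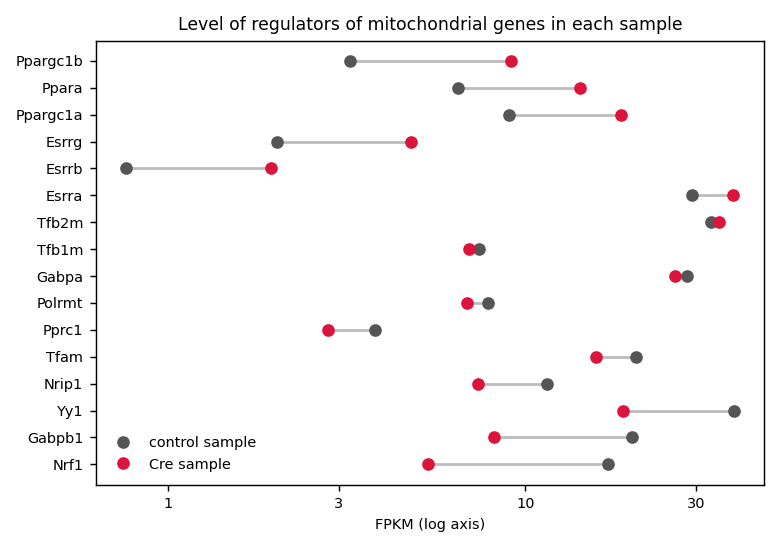
FPKM on a log axis of 16 regulators of mitochondrial genes in the control sample (grey) and the Cre sample (red), ordered by log2 ratio. Ppargc1b, Ppara, Ppargc1a, Esrrg and Esrrb lie to the right in the Cre sample, and Yy1, Gabpb1 and Nrf1 to the left.

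Set against the other lists, the oxidative phosphorylation genes lay between heart muscle and cytosolic ribosomal protein genes. Heart muscle genes had a median of 0.90, with 14 of 21 at least 1.5-fold higher, against 16.6% of all genes. Ttn at 9.31 and 43.0 FPKM and Ryr2 at 18.0 and 67.0 FPKM were the highest. Mb, myoglobin, which stores oxygen for the same mitochondria, had 2842 and 2927 FPKM (0.042), and the mitochondrial creatine kinase Ckmt2 174 and 276 FPKM (0.66). All 22 cytosolic ribosomal protein genes were lower, with a median of -0.64. In the libraries as scaled by the authors, the members' median of 0.13 therefore stood well under that of the contractile genes and above that of the ribosomal genes, which are short and abundant like the members.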

How the data were processed

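TopHat, Bowtie and Cufflinks with the mm9 build made these values, per the submitters' processing notes. Tool versions, annotation, strandedness and normalisation between samples are not stated in the sources used here. The authors deposited 15967 genes, each with an FPKM value for either sample, a log2 fold change, a test score, a p-value and a q-value; that the unit is FPKM was read from the column layout. Because FPKM is relative to the mapped total, abundant transcripts of one tissue lower the values of all others. Of the rows, 2 without a completed comparison and 31 small-RNA genes were left out. Background shares cover 13408 genes whose mean over the samples reached 1 FPKM.

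With 1 library per group no test was run; values are ratios, counts and medians computed with Python 3.11.15, pandas 2.3.3, numpy 2.4.6 and scipy 1.17.1, and the code was tested on simulated data. The 5 time-series libraries were not analysed here. Read depth is unknown, so no counting interval is given. The members, the lists (textbook genes) and the sizes were chosen with earlier results of these data known. Genes named were every isoform, the core and catalytic subunits, the 3 highest and 3 lowest ratios of each complex, members past 1.5-fold and up to 4 of each further pathway list (2 of each cell type list); Arid1a, node, sex-linked and other single genes were added for context after values were known. Values of 1 member and of 1 gene of the pathway lists enter counts and medians but are not reported here by name. Transcript lengths came from GENCODE M21 and were found for all 83 members. Each is the longest transcript linked to the accession, or else of the symbol. It may differ from the length to which FPKM was scaled. Promoter windows and names came from RefSeq for GRCm38.p6, matched by accession; coordinates of genes are mm9 as in the table. 8 members share a locus with another gene in the table and 8 have 13 pseudogene copies named after them, so reads there may be shared. Alternatives were other pseudocounts, minimum levels, scalings and memberships.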

Additional observations from a re-analysis of the deposited data

How the results depend on the processing

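The members' median log2 ratio of 0.13 stayed within 0.1 with pseudocounts of 0.1 and 5, with no minimum or one of 5 FPKM, in TPM and under the 4 other memberships tried (1 of them, without Cox4nb, chosen after seeing the data), and so did the median of each complex. The ratios of single members did so under the pseudocounts and in TPM, and membership and minimum do not enter them. At the same upper quartile it was 0.37, with 17 members at least 1.5-fold higher and 0 lower. Centred on the fibroblast and endothelial lists it was -0.33, with 10 members above equal expression, 0 higher and 5 lower, and medians of -0.32, -0.10, -0.29, -0.39 and -0.34 for complexes I to V. Centred on the heart muscle list it was -0.77, with 0 above, 0 higher and 66 lower, medians of -0.75, -0.54, -0.72, -0.83 and -0.78, and ratios of -0.30 for Atp5b and -0.31 for Cox6a2. Each of these shifts follows from the construction of the scaling, which moves all genes alike. With a pseudocount of 5, and without members at an overlapping locus, the 3 higher members became 2, Cox6a2 being lost. No paired analysis was possible because there was 1 library per group. Levels under 20 FPKM (6 members) are the least certain, and no error can be put on any ratio.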
